A study of Mus musculus with 34 samples.

Results

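The genes described are 42 of the 25124 transcripts in the deposited tables, taken by symbol from a list of 24 genes of the amino acid (ATF4) arm and 18 genes of the ER chaperone arm of the stress response. All 42 symbols were found in each of the 5 tables, and 39 reached the level needed for testing. The cells are C127, a mouse line of mammary origin that the labels call adenocarcinoma cells. The endogenous glucocorticoid receptor had been knocked out in every line, and each line expressed mouse receptor fused to GFP. The 4 mutant lines carried the receptor as P631A, W718E, P643A or the double substitution W718S/Y722S, and the WT line carried it unchanged. Each line was kept for 24 h in 10% charcoal-stripped serum and then given dexamethasone (Dex), a synthetic glucocorticoid, at 100 nM for 2 h, or vehicle. There were 3 Dex and 3 vehicle RNA-seq libraries of each line, except W718S/Y722S with 5 and 5, which makes 34 libraries in 10 groups. Each receptor version was in 1 line. A difference between lines in level or in Dex response can thus come from the receptor version, its amount, the line or conditions shared by that line's libraries. These cannot be told apart. The series was set up around how the receptor assembles into multimers.

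Cells that run short of amino acids, or whose endoplasmic reticulum (ER) fills with unfolded protein, phosphorylate the translation factor eIF2α, which slows protein synthesis in general and favours translation of ATF4. ATF4 is a transcription factor that switches on amino acid synthesis, amino acid import and tRNA charging, and also DDIT3 (CHOP), a factor tied to prolonged stress. The ER has its own sensors beside this route: IRE1α (Ern1), which splices Xbp1 mRNA, and ATF6, which is cut and moves to the nucleus. Their targets are chaperones such as BiP (Hspa5) and the machinery that sends misfolded proteins to the proteasome. Glucocorticoids act through the receptor on enhancers and promoters, and genes such as Per1, Sgk1 and Tsc22d3 are standard targets.

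Levels are normalised counts, which were recovered from the authors' deposited log2 values and divided by size factors taken over all 34 libraries. They show the RNA of a gene relative to that of other genes in a library, and not its amount per cell or per culture. Fewer cells with a transcript or less of it per cell cannot be told apart in such samples. A library had 16472087 to 31482735 reads counted in exons. The hormone response was checked on Per1, Sgk1, Tsc22d3 and Fkbp5, which rose in every line except Fkbp5 in P631A. Per1 changed by 2.13, 2.96, 3.11 and 3.07 on the log2 scale in P631A, W718E, P643A and W718S/Y722S and by 3.20 in WT (limma, all adjusted p at or under 2.34e-10). Sgk1 changed by 1.08, 1.41, 1.89 and 1.57 in the same lines and by 3.95 in WT. By the test of the difference, the responses of Sgk1, Tsc22d3 and Fkbp5 were smaller than in WT in all 4 mutant lines, and that of Per1 in P631A (difference -1.07, adjusted p = 1.59e-08). Epithelial markers were nearly absent: the 6 checked summed to 52.83 to 135.7 normalised counts over the libraries of the 10 groups, 3 or 4 of them reached 10 in a group, and Epcam and Cldn4 lay at 0 to 2.10 and 0 to 0.906. Of 9 markers of other cell types, 4 or 5 reached 10, and they summed to 628.2 to 887.0 in mutant and 1185.4 to 1332.8 in WT libraries, mostly from the fibroblast markers Pdgfra and Col1a1 and, in WT, Lyz2 and Cdh5. In 3 groups, Dex replicate 1 differed from each other library by more than 2 times what those differed among themselves (chi-square per gene over recovered counts). It was 9.975 to 12.536 against 1.296 to 3.266 in W718S/Y722S, 7.031 and 10.906 against 2.849 in P631A, and 5.866 and 5.583 against 1.337 in WT. Member counts are given with and without these libraries. The least different pairs were W718S/Y722S Dex replicates 2 and 3 (1.296) and 4 and 5 (1.482), vehicle replicates 2 and 3 (1.321), and WT Dex replicates 2 and 3 (1.337). Fits without Dex replicate 1 count these as separate libraries. Whether they are separate cultures is not stated, so p-values of such fits may rest on fewer cultures than libraries.

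The promoters of the genes in these arms differ in the DNA elements they carry, and those that the text returns to are shown first. RefSeq promoter windows (build GRCm38.p6, 250 bases before to 50 after a start) were found for 37 members, 22 of the amino acid arm and 15 of the ER chaperone arm. There was none for Slc7a5, Cth, Atf6, Hyou1 and Manf. The ER stress element, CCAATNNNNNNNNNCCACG searched on both strands, was in 6 of the 15 ER chaperone windows (40%; Calr, Creld2, Dnajc3, Hsp90b1, Hspa5 and Pdia6), in 0 of the 22 amino acid windows and in 0.137% of all 27025 genes with a window. The CEBP-ATF element, TGATGNAAN on either strand, which ATF4 binds with a C/EBP partner, was in 7 of 22 amino acid windows (31.8%; Asns, Chac1, Nupr1, Pycr1, Slc7a11, Trib3 and Vldlr), in 1 of 15 ER chaperone windows (Herpud1) and in 4.5% of all genes. A shorter ER stress element II, ATTGGNCCACG on either strand, was looked for after the values were seen. It was in Herpud1 and Dnajb11, 2 of the 15 ER chaperone windows (13.3%), in 0 of the 22 amino acid windows and in 0.0444% of all genes, and none of its matches in members overlapped a match of the other elements. A glucocorticoid element, GNACA, 3 bases of any kind, then TGTNC, on either strand, was in none of the 37 windows and in 0.537% of all genes. A match describes the letters of a window and does not show that a factor binds there, and receptor sites elsewhere were not looked at.
The sequences are of 3 amino acid promoters with the CEBP-ATF element and 3 ER chaperone promoters with the ER stress element. The last line is Herpud1, the member with the largest called hormone response, whose window holds the CEBP-ATF element and, nearer the start, ER stress element II. Capitals mark the matched elements, and each run is read 5′ to 3′ on the gene's strand.
Asns, chr6:7693210-7693257, minus strand: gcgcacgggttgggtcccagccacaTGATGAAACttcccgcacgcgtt
Chac1, chr2:119351023-119351081, plus strand: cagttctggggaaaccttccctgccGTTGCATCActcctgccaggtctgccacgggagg
Slc7a11, chr3:50443628-50443704, minus strand: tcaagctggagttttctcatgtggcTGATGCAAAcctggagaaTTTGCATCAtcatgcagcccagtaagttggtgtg
Hspa5, chr2:34772000-34772068, plus strand: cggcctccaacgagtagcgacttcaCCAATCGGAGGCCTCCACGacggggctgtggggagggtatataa
Pdia6, chr12:17266466-17266534, plus strand: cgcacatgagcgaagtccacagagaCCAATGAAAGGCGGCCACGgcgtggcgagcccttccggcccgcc
Calr, chr8:84847050-84847118, minus strand: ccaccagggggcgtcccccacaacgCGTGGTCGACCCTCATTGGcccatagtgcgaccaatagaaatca
Herpud1, chr8:94386179-94386428, plus strand: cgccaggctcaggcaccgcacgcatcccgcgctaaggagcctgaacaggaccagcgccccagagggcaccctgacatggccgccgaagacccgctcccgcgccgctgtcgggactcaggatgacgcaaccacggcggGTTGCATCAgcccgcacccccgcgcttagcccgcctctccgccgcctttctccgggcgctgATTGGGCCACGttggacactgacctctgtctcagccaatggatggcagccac

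The arms differed in the vehicle libraries, where no hormone had been given. Amino acid arm genes stood at a higher level than in WT in each mutant line, with a median ratio over 21 measured members of 2.08 for P631A, 2.32 for W718E, 2.42 for P643A and 2.06 for W718S/Y722S. ER chaperone arm genes had median ratios over 18 members of 0.968, 1.01, 1.02 and 1.07 in the same lines, and all measured genes had 0.997, 1.00, 0.991 and 1.00. Counting a member as apart when the libraries of the lines did not overlap and the means differed by at least 1.5-fold, 16, 16, 16 and 18 of the 21 amino acid members were higher, while 11.6%, 13.3%, 15.3% and 15.0% of all genes were. By that rule 0 of the 18 ER chaperone members were higher in any of the 4 lines. Lower than WT were 1, 1, 0 and 0 amino acid members and 1, 1, 1 and 2 ER chaperone members, against 10.7%, 13.1%, 15.5% and 14.2% of all genes. With the size factors of each line's own table, which moved the median of all genes to 1.06, 0.990, 1.04 and 0.793, the amino acid arm had 2.20, 2.29, 2.54 and 1.63 and the ER chaperone arm 1.02, 0.996, 1.07 and 0.845, so the side of 1 on which the ER chaperone median lay depended on the scaling. These levels are described and were not tested between lines. The authors normalised each line's table separately. All 4 ratios use the same WT libraries, so their likeness is not independent.

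The amino acid members that passed the rule as higher in all 4 mutant lines included the regulators Atf4 and Trib3, enzymes and transporters. Asns, which makes asparagine, had 12267 to 12948 normalised counts in P631A vehicle libraries, 13002 to 13127 in W718E, 13571 to 14091 in P643A and 11445 to 12082 in W718S/Y722S, against 5011 to 5245 in WT. Every mutant library lay above every WT library. For Atf4 itself the ratios to WT were 1.98, 2.01, 2.26 and 1.92 in P631A, W718E, P643A and W718S/Y722S, over a WT mean of 8442 normalised counts. Trib3, a pseudokinase that feeds back on ATF4, had ratios of 2.88, 3.49, 3.91 and 4.14, and Chac1, which degrades glutathione, of 2.89, 3.35, 3.96 and 3.59, in the same order. Slc7a11, the cystine importer, was low in WT at 251 normalised counts and had ratios of 3.65, 3.14, 4.74 and 4.00. The serine and one-carbon enzymes Phgdh, Psat1, Psph, Shmt2 and Mthfd2 and the proline enzymes Aldh18a1 and Pycr1 passed the rule in each of the 4 comparisons, with ratios between 1.56 (Phgdh in W718S/Y722S) and 4.23 (Pycr1 in P643A). The same held for the alanine aminotransferase Gpt2 and the amino acid transporters Slc7a5 and Slc7a1. Slc3a2, the partner chain of Slc7a5, passed the rule in P643A and W718S/Y722S, with ratios of 1.44, 1.41, 1.80 and 1.63.

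Other members of the amino acid arm passed the rule in some lines or in none. Nupr1, a small stress-induced chromatin protein, had ratios of 0.618, 0.653, 0.676 and 0.719 in P631A, W718E, P643A and W718S/Y722S and passed the rule as lower in P631A and W718E. Ppp1r15a (GADD34), which brings the phosphatase that reverses eIF2α phosphorylation, had ratios of 0.777, 0.954, 1.28 and 2.04, and Ddit3 had 1.32, 1.51, 1.39 and 2.30. For both, W718S/Y722S had the highest ratio, and there both passed the rule as higher, as Ddit3 also did in W718E. Atf5 and the TORC1 inhibitor Sesn2 had ratios of 1.54, 1.39, 1.45 and 1.35 and of 1.24, 1.23, 1.47 and 1.37, and Atf5 passed the rule in P631A alone and Sesn2 in no line. In the ER chaperone arm Hspa5 had 15405 to 16042 normalised counts in P631A, 16427 to 17804 in W718E, 16504 to 17285 in P643A and 19358 to 20617 in W718S/Y722S vehicle libraries, against 13757 to 13918 in WT. The ratios were 1.14, 1.24, 1.22 and 1.44, all under the 1.5-fold mark. Xbp1 had ratios of 0.968, 0.949, 0.884 and 0.928. The sensor Atf6 had 0.623, 0.795, 0.588 and 0.584 and the ER co-chaperone Sdf2l1 had 0.738, 0.649, 0.691 and 0.650, and these supplied the lower counts of this arm.

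Genes of both pathways outside the 42, taken from 2 further lists, were counted by the same rule. These lists too were chosen with earlier results of these data known, so they are not independent of the members. Of 38 other ATF4 pathway genes, such as tRNA synthetases and further transporters, 37 were in the tables. In vehicle libraries 18 of 35 measured were higher than WT in P631A, 24 of 36 in W718E, 25 of 36 in P643A and 24 of 36 in W718S/Y722S, with median ratios of 1.51, 1.72, 1.79 and 1.80. Of the 35 other ER stress genes, 1, 1, 1 and 2 were higher, with median ratios of 0.901, 0.921, 0.894 and 0.963. Dex libraries gave nearly the same medians. For the amino acid arm they were 2.10, 2.20, 2.38 and 2.03, and for the ER chaperone arm 0.942, 0.969, 0.965 and 1.04. Other transcripts also set the WT line apart in vehicle. Malat1 had 285861 to 435248 normalised counts in the mutants and 1239077 to 1285258 in WT, the macrophage marker Lyz2 had 25.8 to 64.2 and 163.3 to 215.5, and the share of counts on the ribosomal precursor Rn45s was 13.84 to 18.31% and 9.948 to 11.34% over libraries of both treatments. The receptor gene Nr3c1, for which fusion and endogenous transcripts were not separated, averaged 5146 to 6351 normalised counts over the mutants and 7061 in WT. Their part in the difference was not tested.

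**Figure D1:**
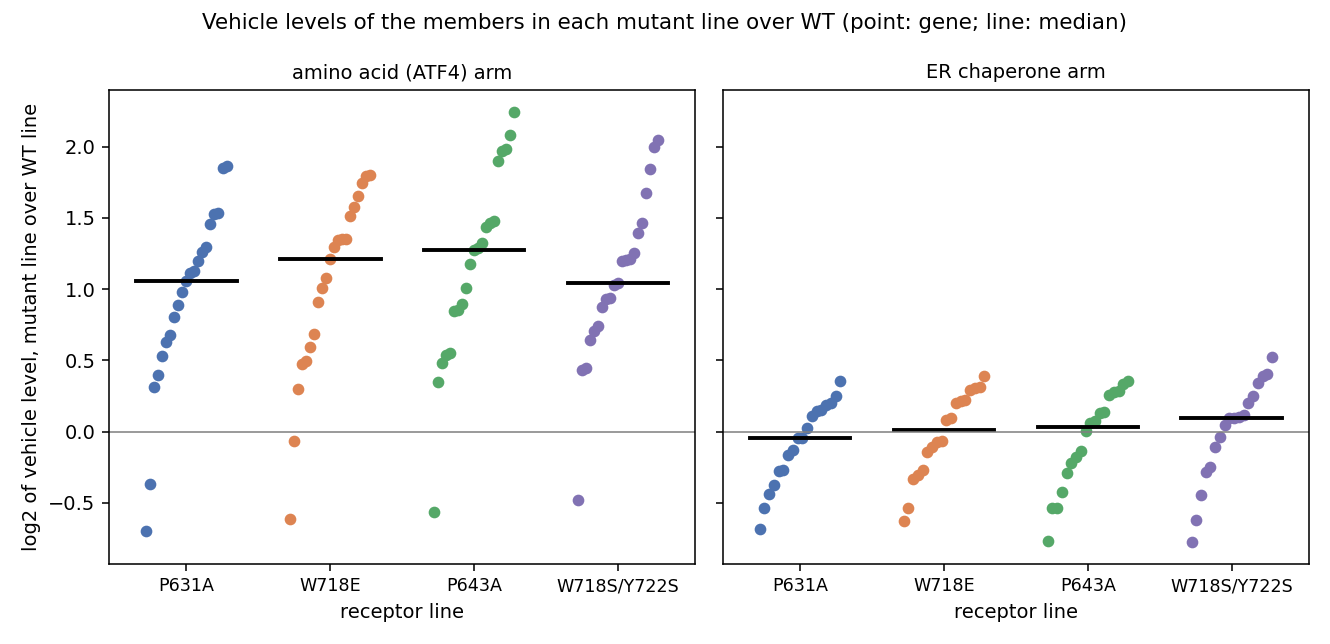
Ratio of the mean vehicle level in each mutant line to that in WT, on a log2 axis, for each measured member of the amino acid arm and of the ER chaperone arm, with 1 point per gene. Amino acid members centre on ratios of 2.06 to 2.42 in the 4 lines, and ER chaperone members on 0.968 to 1.07 (0.845 to 1.07 with each table's own size factors).

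Within lines, 2 h of Dex moved few of the 39 tested members, and every log2 change was between -0.45 and 0.58. A member was called when limma's adjusted p, taken over all genes tested in that line, was under 0.05. The p comes from the deposited log2 values, and the printed change and its standard error from the log2 of the recovered normalised counts plus 1. In P631A 0 members rose and 0 fell, against 0.197% and 0.0236% of all genes, and 3 members had an unadjusted p under 0.05. In W718E 0 rose and 0 fell, against 0.476% and 0.0476%, and 3 members were under 0.05 before adjustment. The labels do not say whether replicate numbers pair the libraries, and a pairing in W718E is only inferred from correlations. With replicate number as a block in W718E, Herpud1 rose and Ddit3 and Chac1 fell, and the shares of all genes were 1.33% and 0.960%. In P643A Herpud1 rose (1 of 39, against 2.63% of all genes), and Ddit3, Chac1, Ppp1r15a and Ern1 fell (4 of 39, against 2.15%). Over all genes 331 rose and 271 fell there, or 299 and 442 with median centring. In W718S/Y722S Atf6 rose (1 of 39, against 2.55%), and Atf5, Ddit3, Chac1, Trib3 and Ppp1r15a fell (5 of 39, against 2.24%). Without Dex replicate 1 of that line the numbers were 1 and 9, with Atf4, Mthfd2, Slc3a2 and Sesn2 added (adjusted p = 0.0364, 9.28e-04, 0.0454 and 0.00577). The percentages just given are of the fit with all libraries and do not apply to this one. The share of all genes called in it is not given, so the added calls are not read as a result about the members. Leaving out each library in turn gave 231 to 478 genes higher and 181 to 493 lower there, against 317 and 279 with all libraries. In WT Herpud1 and Dnajb9 rose (2 of 39, against 3.96%), and Atf4 and Ddit3 fell (2 of 39, against 2.74%). Without WT Dex replicate 1 the numbers were 3 and 2, with Atf6 added (adjusted p = 0.0439), again without the share of all genes in that fit. Without P631A Dex replicate 1 those of P631A were 0 and 0. Over all genes, leaving out each WT library in turn gave 392 to 626 higher and 233 to 610 lower, against 500 and 346 with all. With the closest library pairs merged, an alternative chosen after seeing the data, the W718S/Y722S calls of Atf5, Chac1, Trib3 and Atf6 and the WT call of Dnajb9 were lost (limma adjusted p = 0.0684, 0.276, 0.26, 0.174 and 0.111). In the authors' deposited table, the adjusted p was 0.067 for Ppp1r15a and 0.136 for Ern1 in P643A, 0.135 for Chac1 and 0.13 for Trib3 in W718S/Y722S and 0.175 for Dnajb9 in WT, and it was under 0.05 for the other 10 calls made in these 3 lines with all libraries.

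Every call in the amino acid arm was a fall: 0, 0, 3 and 5 of 21 in P631A, W718E, P643A and W718S/Y722S, and 2 of 21 in WT. Of all genes 0.0236%, 0.0476%, 2.15%, 2.24% and 2.74% fell in the same order. In the ER chaperone arm 1 of 18 rose and 1 fell in P643A, 1 rose in W718S/Y722S and 2 rose in WT. Of all genes 2.63%, 2.55% and 3.96% rose in P643A, W718S/Y722S and WT. The median log2 change of the amino acid arm was -0.01, -0.03, -0.05 and -0.05 in the 4 mutant lines and -0.01 in WT, while the ER chaperone arm had 0.03, 0.02, 0.03, -0.01 and 0.01 in the same order. Over all genes tested the medians lay between -0.002 and 0.001. Changes above 0 were found for 10, 5, 1 and 6 of the 21 amino acid members in P631A, W718E, P643A and W718S/Y722S and for 9 in WT. For the ER chaperone arm they were found for 13, 12, 14 and 9 of 18 in the mutants and for 14 in WT. Of all genes tested, 6321 of 12691, 6235 of 12598, 6385 of 12597 and 6080 of 12436 were above 0 in the mutants and 6355 of 12626 in WT.

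**Figure D2:**
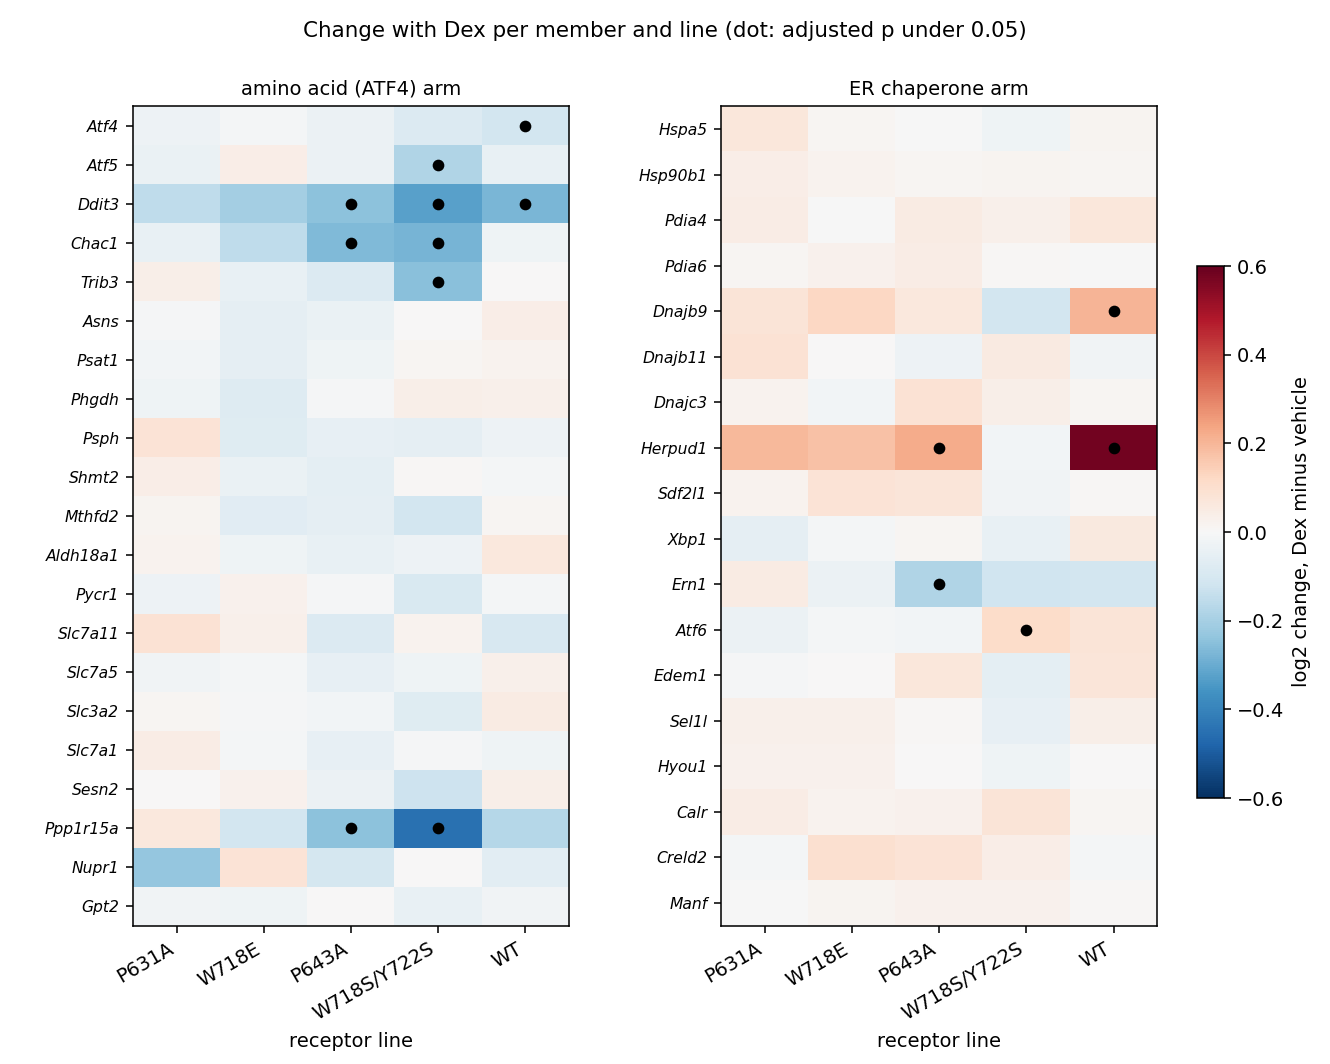
Log2 change with Dex (Dex minus vehicle) of each tested member in each line, with the amino acid arm and the ER chaperone arm shown apart, and with members called by limma marked. Most members lie close to 0, the called amino acid members lie below it, and Herpud1 in WT, at 0.58, is the farthest above it.

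Herpud1, a membrane protein of the ER that takes part in degrading misfolded proteins, had the largest called change of the 42 (chr8:94386429-94395371, plus strand, mm10). In P631A it had 1497, 1282 and 1382 normalised counts in Dex libraries, against 1243, 1164 and 1230.1 in vehicle libraries. In W718E it had 1596, 1564 and 1526 normalised counts in Dex libraries, against 1408, 1369 and 1375 in vehicle libraries. In P643A it had 1630.5, 1674 and 1662 normalised counts in Dex libraries, against 1365, 1474 and 1437 in vehicle libraries. In these 3 lines the log2 changes were 0.19 ± 0.057 (SE; limma adjusted p = 0.524), 0.18 ± 0.038 (adjusted p = 0.099, or 0.00152 with the replicate block) and 0.22 ± 0.036 (adjusted p = 7.94e-05). Every Dex library lay above every vehicle library in each, but only the P643A change was called without the block. Here and for other members, the share of all genes whose groups lie apart in this way is not given. W718S/Y722S had 1654, 1500.4, 1568, 1373 and 1368 normalised counts in Dex libraries, against 1589, 1495, 1423, 1525 and 1517 in vehicle libraries. The 2 groups overlapped, with a log2 change of -0.02 ± 0.048 (adjusted p = 0.91). WT had 1776, 1767 and 1770.4 normalised counts in Dex libraries, against 1118, 1241 and 1219.7 in vehicle libraries, so the WT Dex libraries were the highest of all 10 groups and the WT vehicle libraries among the lowest. The log2 change was 0.58 ± 0.039 (adjusted p = 3.09e-09), a 1.49-fold rise.

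The difference between responses was tested directly. The Herpud1 response was smaller than that of WT in each mutant line, with a log2 difference of -0.38 ± 0.073 for P631A (SE; limma adjusted p = 0.00434), -0.40 ± 0.055 in W718E (adjusted p = 1.68e-04), -0.36 ± 0.054 in P643A (adjusted p = 1.79e-04) and -0.60 ± 0.072 in W718S/Y722S (adjusted p = 1.30e-05). It was called in every fit that left out 1 library, 12, 12, 12 and 16 fits, and the P631A difference was lost without a variance trend (adjusted p = 0.0735). The 4 differences share the WT libraries. Of all genes, 1.44%, 1.27%, 0.972% and 1.27% had a smaller or more negative response than in WT in these 4 lines, and 0.497%, 0.506%, 0.582% and 0.444% a larger one. One further member was called, Chac1 in P643A (-0.24 ± 0.058, adjusted p = 0.035), and this call held in 3 of the 12 fits that left out 1 library, those without WT vehicle replicate 3, WT Dex replicate 1 or WT Dex replicate 3. In the other 9 the adjusted p was 0.055 to 0.131. It was 0.0644 with no filter, 0.208 without a variance trend and 0.0568 with the closest libraries merged. No member had a response called larger than in WT. Vehicle levels of Herpud1 in the mutants were 1.02, 1.16, 1.20 and 1.27 times that of WT. The responses of W718E, P643A and W718S/Y722S were thus measured from higher starting levels, while P631A vehicle libraries overlapped those of WT. Nr3c1 counts in vehicle libraries, with fusion and endogenous transcripts not separated, averaged 5146 to 6351 normalised counts over the mutant lines and 7061 in WT. The part of the line or of receptor amount in the smaller responses was not tested.

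**Figure D3:**
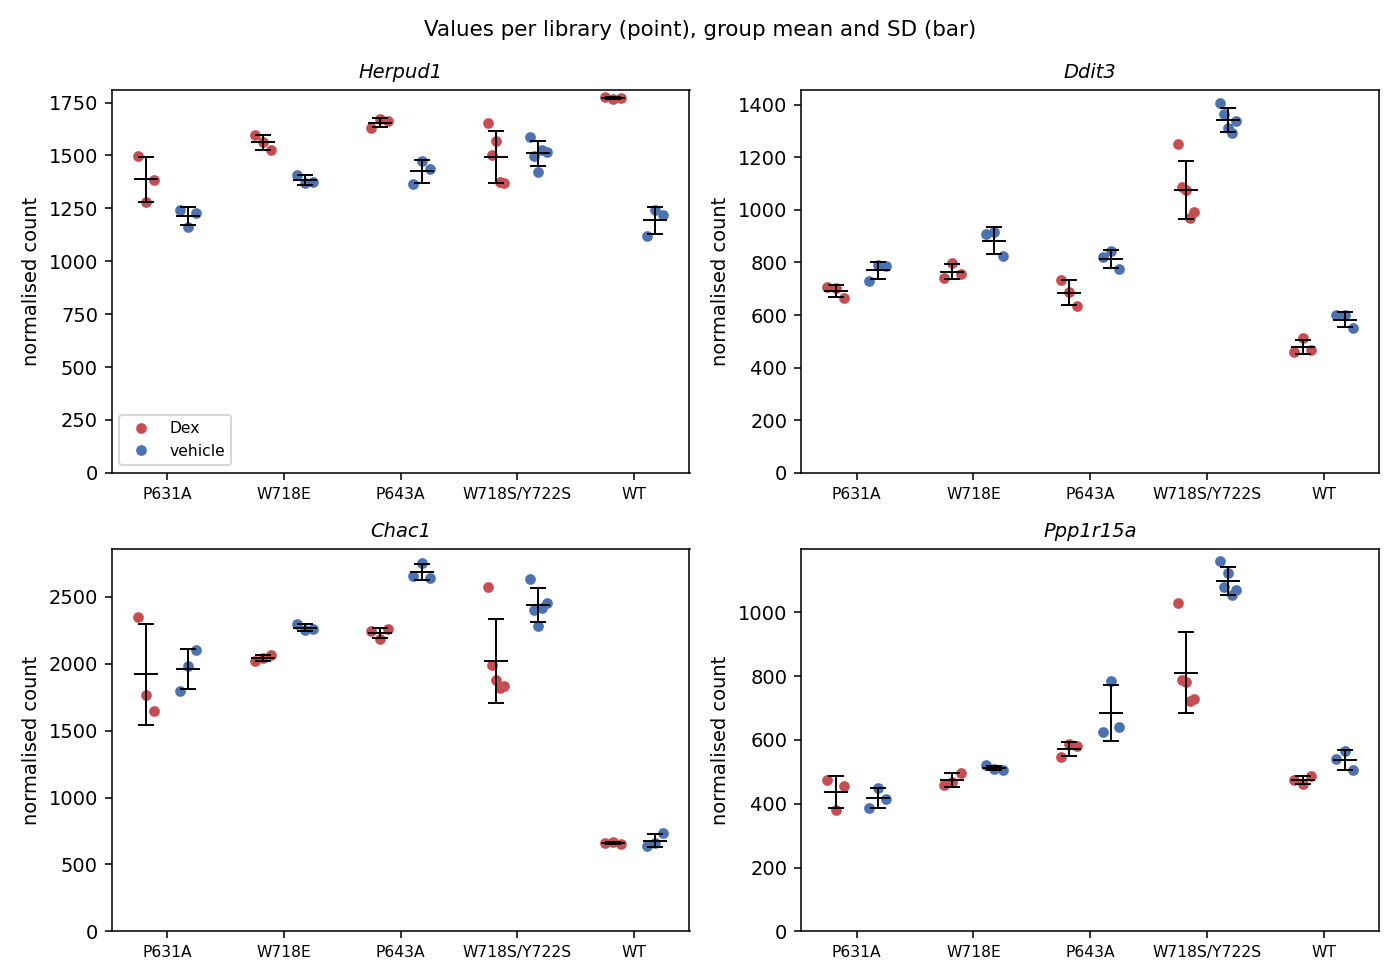
Normalised counts of the members described in most detail, with 1 point per library and Dex libraries to the left of vehicle libraries in each line. Herpud1 in WT reaches 1767 to 1776 with Dex, against 1118 to 1241 with vehicle, while its Dex and vehicle libraries overlap in W718S/Y722S.

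**Figure D4:**
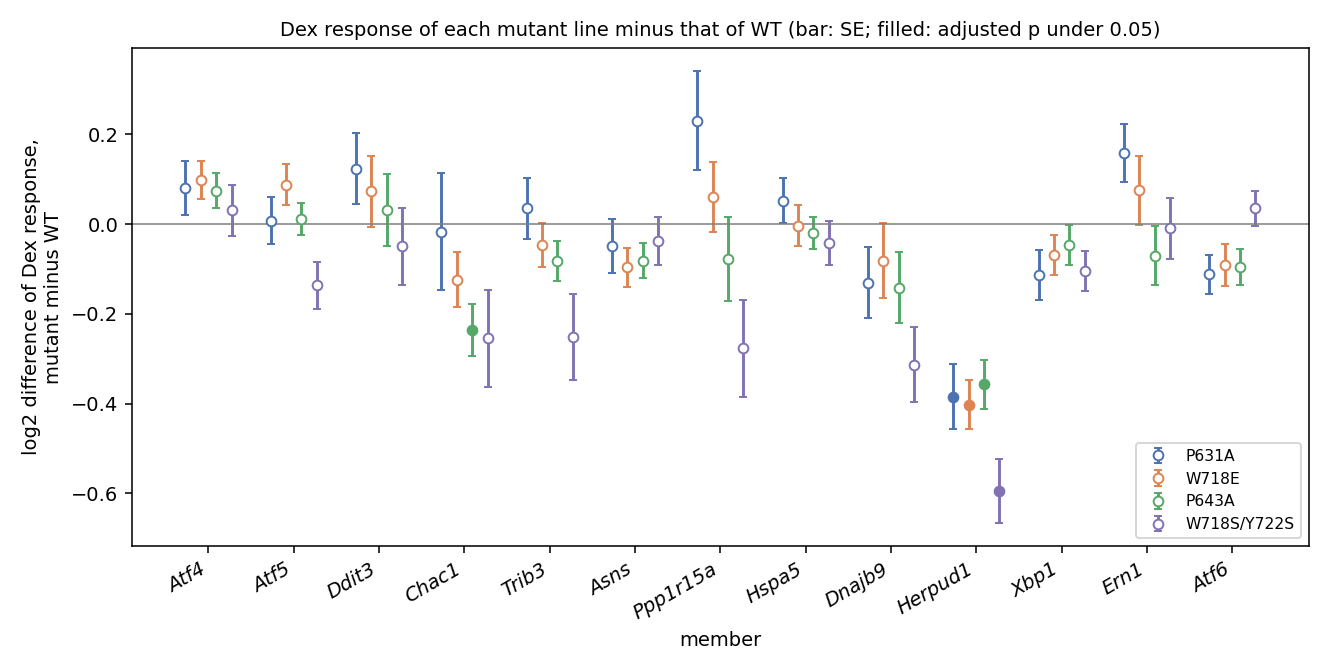
Dex response of each mutant line minus that of WT, in log2 units with SE, for the members named in full. Herpud1 lies at -0.38, -0.40, -0.36 and -0.60 in P631A, W718E, P643A and W718S/Y722S, and the other members lie closer to 0 with 1 call, Chac1 in P643A.

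Among the regulators of the amino acid arm, Ddit3 (CHOP) fell in 3 lines (chr10:127290793-127296288, plus strand, where 68 bases overlap Mars on the other strand, and how reads were assigned to strands is not given in the sources used here). In P643A it had 732, 686 and 636 normalised counts in Dex libraries, against 819.7, 842 and 776 in vehicle libraries, a log2 change of -0.24 ± 0.052 (limma adjusted p = 0.00184, or 0.0897 without a variance trend). In W718S/Y722S it had 1248, 1088, 1074, 969 and 993 normalised counts in Dex libraries, against 1407, 1365, 1310.4, 1294 and 1337 in vehicle libraries, a change of -0.32 ± 0.054 (adjusted p = 6.35e-04). In WT it had 461, 511 and 467 normalised counts in Dex libraries, against 600.1, 599 and 549.5 in vehicle libraries, a change of -0.28 ± 0.057 (adjusted p = 0.00325). No Dex library reached a vehicle library in any of the 3, nor in P631A or W718E. Ddit3 was not called in P631A, with 707, 704 and 664 normalised counts in Dex libraries, against 731, 789 and 788 in vehicle libraries (-0.15 ± 0.056, adjusted p = 0.765). Nor was it called without the block in W718E, with 742, 798 and 755 normalised counts in Dex libraries, against 908, 915 and 824 in vehicle libraries (-0.20 ± 0.055, adjusted p = 0.284, or 0.00507 with the replicate block). No difference of the Ddit3 response from WT was called. The differences were 0.12 ± 0.080, 0.07 ± 0.080, 0.03 ± 0.080 and -0.05 ± 0.086 (log2 ± SE) in P631A, W718E, P643A and W718S/Y722S.

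Atf4 (chr15:80255184-80257545, plus strand) fell in WT, with 7546, 7940.3 and 7859 normalised counts in Dex libraries, against 8452, 8634 and 8241 in vehicle libraries, a log2 change of -0.11 ± 0.027 (limma adjusted p = 0.0172). The groups did not overlap, and the call was lost without vehicle replicate 1 or 2 (adjusted p = 0.0861 and 0.108). In P631A, W718E, P643A and W718S/Y722S the Atf4 change was -0.03 ± 0.051, -0.01 ± 0.032, -0.04 ± 0.027 and -0.08 ± 0.039, and none was called. Without Dex replicate 1, W718S/Y722S had an adjusted p of 0.0364. Atf5, a relative of Atf4 that is also translated under stress, had 20480.4, 19991, 19996, 19288 and 18942 normalised counts in Dex libraries, against 24637, 21360.4, 21653, 22272 and 22288 in vehicle libraries of W718S/Y722S, and fell there by 0.18 on the log2 scale (SE 0.036, adjusted p = 0.00431). Its row overlaps Nup62 by 571 bases and Il4i1b by 289 bases on the other strand. In P631A, W718E and P643A, and in WT, the Atf5 change was -0.04 ± 0.045, 0.04 ± 0.036, -0.04 ± 0.025 and -0.05 ± 0.027, with no call.

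Chac1 (chr2:119351242-119354327, plus strand), a target of ATF4 and CHOP, fell in P643A, with 2244, 2186 and 2256 normalised counts in Dex libraries, against 2655, 2753 and 2640.3 in vehicle libraries, a log2 change of -0.26 ± 0.031 (limma adjusted p = 4.63e-07). It also fell in W718S/Y722S, with 2570.2, 1990.0, 1881, 1818 and 1833 normalised counts in Dex libraries, against 2632, 2398, 2281, 2416 and 2456 in vehicle libraries (-0.28 ± 0.071, adjusted p = 0.0284). Here the groups overlapped at Dex replicate 1, the first value, and the adjusted p was 2.73e-08 without it. That fit counts the close pairs of Dex libraries as separate. The call held in 2 of 10 fits that left out 1 library, those without Dex replicate 1 and vehicle replicate 3, and in the other 8 the adjusted p was 0.052 to 0.0968. It was also lost with no filter (adjusted p = 0.068), without a variance trend (0.0832) and with the closest library pairs merged (0.276). W718E had 2020.2, 2039 and 2065 normalised counts in Dex libraries, against 2299, 2249.7 and 2259 in vehicle libraries (-0.15 ± 0.033, adjusted p = 0.109, or 0.00246 with the replicate block). P631A changed by -0.04 ± 0.103 and WT by -0.03 ± 0.052, neither called. Without Dex replicate 1, the Chac1 response of W718S/Y722S minus that of WT was -0.34 (adjusted p = 8.36e-04), where with all libraries it was -0.25 ± 0.108 (adjusted p = 0.34).

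Ppp1r15a (chr7:45522917-45526268, minus strand) fell in P643A, with 548, 588 and 582 normalised counts in Dex libraries, against 626, 786 and 641 in vehicle libraries (-0.25 ± 0.064, limma adjusted p = 0.0139, or 0.187 when vehicle replicate 2 was left out, 0.0908 when Dex replicate 1 was, and 0.251 without a variance trend). It also fell in W718S/Y722S, with 1030.2, 788, 783, 722.2 and 727 normalised counts in Dex libraries, against 1160.2, 1079, 1124, 1053 and 1069.5 in vehicle libraries (-0.45 ± 0.072, adjusted p = 5.22e-04, called in 10 of 10). The Dex groups lay wholly below the vehicle groups in both lines, and also in W718E and WT, where Ppp1r15a was not called. WT had 476, 461 and 488 normalised counts in Dex libraries, against 541, 564 and 504 in vehicle libraries, a change of -0.17 ± 0.056 that was not called (adjusted p = 0.082, or 0.0415 without vehicle replicate 3). P631A changed by 0.06 ± 0.089 and W718E by -0.11 ± 0.057, neither called. The W718S/Y722S response minus that of WT was -0.28 ± 0.109 (adjusted p = 0.284), and -0.37 without Dex replicate 1 (adjusted p = 0.00104). Trib3 (chr2:152337425-152344060, minus strand) fell in W718S/Y722S, with 5134, 4276, 4369, 3691 and 3858 normalised counts in Dex libraries, against 5562, 4992, 4713, 4828 and 5179 in vehicle libraries (-0.25 ± 0.066, adjusted p = 0.0357). The first Dex library overlapped the vehicle libraries. The call held in 3 of 10 fits that left out 1 library, those without Dex replicate 1 (adjusted p = 9.57e-06), vehicle replicate 3 or vehicle replicate 4, and the adjusted p was 0.0616 to 0.117 in the other 7. It was also lost with no filter (0.0807), without a variance trend (0.0949) and with the closest library pairs merged (0.26). Without Dex replicate 1, the Trib3 response of W718S/Y722S minus that of WT was -0.32 (adjusted p = 0.00412), where with all libraries it was -0.25 ± 0.096 (adjusted p = 0.261). In P631A, W718E and P643A, and in WT, Trib3 changed by 0.04 ± 0.054, -0.04 ± 0.034, -0.08 ± 0.028 and 0.002 ± 0.037, with no call. Asns (chr6:7675165-7693209, minus strand), which stood apart between lines, did not pass the test with Dex in any: the log2 changes were -0.01 ± 0.049, -0.05 ± 0.031, -0.04 ± 0.025 and 0.004 ± 0.036 in P631A, W718E, P643A and W718S/Y722S, and 0.04 ± 0.030 in WT.

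In the ER chaperone arm, Dnajb9 (ERdj4, chr12:44205897-44210068, minus strand), a BiP co-chaperone that IRE1 and XBP1 induce, rose in WT, with 520.0, 568 and 578 normalised counts in Dex libraries, against 494, 493 and 462 in vehicle libraries (0.21 ± 0.055, limma adjusted p = 0.0259). The groups did not overlap, which also held in P631A, where Dnajb9 was not called. The WT call held in 1 of 6 fits that left out 1 library, that without Dex replicate 1, and the adjusted p was 0.0574 to 0.147 in the other 5. The changes in P631A, W718E, P643A and W718S/Y722S were 0.08 ± 0.061, 0.12 ± 0.063, 0.06 ± 0.059 and -0.11 ± 0.055, none called. The W718S/Y722S response minus that of WT was -0.31 ± 0.084 (adjusted p = 0.0638), and -0.34 without Dex replicate 1 of that line (adjusted p = 0.0153). It was also called without WT Dex replicate 1 (adjusted p = 0.0422). The sensor gene Ern1 (chr11:106397620-106487796, minus strand) fell in P643A, with 729, 794 and 816 normalised counts in Dex libraries, against 864, 893 and 898 in vehicle libraries (-0.18 ± 0.047, adjusted p = 0.0155, or 0.0735 when vehicle replicate 3 was left out, 0.183 when Dex replicate 1 was, and 0.103 without a variance trend). In P631A, W718E and W718S/Y722S, and in WT, it changed by 0.05 ± 0.049, -0.03 ± 0.060, -0.12 ± 0.044 and -0.11 ± 0.045, with no call. Atf6 (chr1:170704457-170867771, minus strand) rose in W718S/Y722S, with 4229.8, 4249, 4143, 4072 and 4075 normalised counts in Dex libraries, against 3913, 3801, 3774, 3757 and 3997 in vehicle libraries (0.11 ± 0.027, adjusted p = 0.0214). The groups did not overlap, which also held in WT, where Atf6 was not called. The W718S/Y722S call was lost without vehicle replicate 2, 3 or 4 or Dex replicate 2 (adjusted p = 0.052 to 0.0678). In P631A, W718E and P643A, and in WT, Atf6 changed by -0.03 ± 0.037, -0.01 ± 0.038, -0.02 ± 0.029 and 0.08 ± 0.026, with no call (WT adjusted p = 0.117, or 0.0439 without Dex replicate 1). Neither Hspa5 nor Xbp1 was called in any line. Hspa5 (chr2:34772090-34776529, plus strand) changed by 0.07 ± 0.044, 0.01 ± 0.037, -0.002 ± 0.027 and -0.02 ± 0.035 in the 4 mutant lines and by 0.02 ± 0.024 in WT. Xbp1 (chr11:5520641-5525993, plus strand) changed by -0.06 ± 0.044, -0.01 ± 0.032, 0.01 ± 0.031, -0.05 ± 0.028 and 0.06 ± 0.032 in the same order. Exon counts do not show how much of the Xbp1 mRNA was spliced by IRE1.

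The other 26 tested members were not called in any line. The 14 of the amino acid arm, which are enzymes, transporters, Sesn2 and Nupr1, had log2 changes between -0.23 and 0.085 in P631A, -0.08 and 0.08 in W718E, -0.10 and 0.002 in P643A, -0.12 and 0.04 in W718S/Y722S, and -0.10 and 0.06 in WT. The 12 of the ER chaperone arm are the chaperones and folding enzymes Hsp90b1, Hyou1, Calr, Pdia4, Pdia6, Dnajb11, Dnajc3 and Sdf2l1, the degradation factors Edem1 and Sel1l, and the secreted proteins Creld2 and Manf. Their changes lay between -0.01 and 0.085 in P631A, -0.015 and 0.09 in W718E, -0.03 and 0.085 in P643A, -0.06 and 0.08 in W718S/Y722S, and -0.02 and 0.07 in WT. Vldlr, Stc2 and Cth were not tested, since their highest levels in 34 libraries were 3.69, 0.974 and 11.8 normalised counts. Per kilobase of transcript in WT vehicle libraries, the most abundant members were Atf5 with 9193 normalised counts, Hsp90b1 with 7108, Calr with 6462, Hspa5 with 5318 and Atf4 with 4897, and the least abundant tested member was Slc7a11 with 27.3.

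Beyond the 42, a few genes of the 2 wider lists responded. Ddit4 (REDD1), a TORC1 inhibitor, rose by 0.29 on the log2 scale in P631A (limma adjusted p = 0.0194), by 0.35 in P643A (adjusted p = 2.28e-09) and by 0.18 in WT (adjusted p = 0.013). Cebpb, a partner of ATF4 on CEBP-ATF elements, rose by 0.30 in W718E (adjusted p = 0.0342), 0.40 in P643A (adjusted p = 1.73e-11) and 0.40 in WT (adjusted p = 1.84e-07), and its response in P631A was smaller than in WT (difference -0.34, adjusted p = 0.0438). The other differences from WT called in these lists were Slc38a2 in P631A (0.18, adjusted p = 0.0222), Slc1a4 in W718E (-0.20, adjusted p = 0.0418) and in W718S/Y722S (-0.24, adjusted p = 0.00434), and Gdf15 in W718S/Y722S (-1.41, adjusted p = 0.0328). The amino acid transporters Slc1a4 and Slc38a2 changed in WT by 0.17 and -0.16 (adjusted p = 0.00166 and 1.75e-04), and the glycine transporter Slc6a9 in P643A by -0.16 (adjusted p = 0.0014). In W718S/Y722S Gdf15, a stress-induced hormone, changed by -0.82 (adjusted p = 0.00136), Cebpg by -0.16 (adjusted p = 0.00436), the ER oxidase Ero1l by -0.20 (adjusted p = 0.0234) and Edem3 by 0.11 (adjusted p = 0.0355). In all, 1, 1, 2 and 0 other ATF4 pathway genes rose and 0, 0, 1 and 2 fell in P631A, W718E, P643A and W718S/Y722S, and 3 rose and 1 fell in WT, of 34 to 36 tested. Of all genes 0.197%, 0.476%, 2.63% and 2.55% rose and 0.0236%, 0.0476%, 2.15% and 2.24% fell in the mutants, and 3.96% and 2.74% in WT. Of 35 other ER stress genes, the 2 just named in W718S/Y722S were called, and none in the other lines. Among markers and quality transcripts, the adipocyte marker Fabp4 rose with Dex in P643A, W718S/Y722S and WT (log2 1.75, 0.79 and 3.64), Lars2 rose in P631A and P643A, Malat1 and Neat1 fell in P643A, and Rn45s fell in WT. Their part in these results was not tested.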

How the data were processed

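Total RNA was made into TruSeq Stranded Total RNA libraries, per the labels' protocols, and the submitters' processing notes name STAR 2.7.0f, cutadapt, HOMER 4.10.4 and the mm10 build. Per the file headers, the authors counted reads in exons of RefSeq transcripts, 1 per gene, and compared Dex with vehicle in a table for each line. The strand setting is not given in the sources used here. The deposited library values are on a log2 scale, normalised by the authors within each table, and the deposited log2 fold changes and p-values are the authors' own. Whether replicates came from separate cultures is not stated, so p-values measure only the spread between these libraries, which may be technical.

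The deposited log2 values have the form of a ridge-shrunken count model, and counts were recovered by undoing it. This step was tested on data simulated with the same model, which cannot show that the deposited values follow that model. The recovered counts lay within 0.1 of a whole number for 99.99 to 100% of values of genes with a mean under 100 and 85.3 to 92.1% of those over 5000. Dex was compared with vehicle within a line by limma 3.58.1 (R 4.3.3, variance trend) on the deposited log2 values, for genes at 10 or more in as many libraries as the smaller group held, with Benjamini-Hochberg adjustment over all genes tested and calls at 0.05. Printed changes, and differences from WT, came from limma on log2 of the recovered normalised counts plus 1.

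The members and lists were chosen with earlier results of these data known. Members were named in full when called in a line or in a difference, or when they were Atf4, Ddit3, Asns, Trib3, Chac1, Hspa5, Xbp1, Herpud1 or Dnajb9. Libraries with the same replicate number deviated together in W718E (correlations of 0.106, 0.489 and 0.586 over genes), and in no other line was every correlation over 0.1. The highest correlations with another number were 0.017, 0.295 and -0.345 in W718E, but reached 0.423 in P631A. The labels do not give a pairing, so that in W718E is inferred. Alternatives left out each library, blocked on replicate number, and changed the filter, scaling, pseudocount, variance model and value scale. Fits with voom weights or with the 4 closest library pairs merged, and levels in Dex libraries, were added after seeing the data.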

Additional observations from a re-analysis of the deposited data

Results flagged for a closer look

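The Herpud1 response to Dex differed from that of WT in each mutant line by the test of the difference, at -0.384 for P631A, -0.402 for W718E, -0.357 for P643A and -0.595 for W718S/Y722S (log2, mutant minus WT). The Chac1 response differed in P643A, at -0.236. In W718S/Y722S, 3 values lay far from the other libraries of their group: Atf5 in vehicle replicate 1, at 24637.0 normalised counts, and Chac1 and Ppp1r15a in Dex replicate 1, at 2570.2 and 1030.2. They came from 26 checks, of 13 genes in the same 2 groups of 5 libraries, so values of 1 library are not independent, and chance flags about 1 check in 20.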

How the results depend on the processing

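Dex against vehicle, all genes: P631A had 25 higher and 3 lower, against 5 and 0 with the replicate block, 4 and 1 without a variance trend, and 6 lower by the authors' p. W718E had 60 and 6, against 167 and 121 with the block, and lower 2 without a trend and 12 by the authors' p. P643A had 331 and 271, against 299 and 442 with median centring, and lower 136 without a trend and 155 by the authors' p. W718S/Y722S had 317 and 279, against 164 and 109 with the closest libraries merged. WT had 346 lower, against 227 by the authors' p. Members: W718E had 0 higher and 0 lower, against 1 and 2 with the block and 1 lower without a trend. P643A had 4 lower, against 1 without a trend and 2 by the authors' p. W718S/Y722S had 1 higher, against 0 with the block or merged, and 5 lower, against 3 with no filter, without a trend or by the authors' p, and 2 merged. WT had 2 higher, against 1 without a trend, merged or by the authors' p. Without each library in turn, members higher ranged over 0 in P631A and W718E, 1 in P643A, 0 to 1 in W718S/Y722S and 1 to 3 in WT, and lower over 0, 0, 2 to 4, 3 to 9 and 1 to 3. All genes ranged over 12 to 43 higher and 2 to 6 lower in P631A, 28 to 69 and 0 to 11 in W718E, 269 to 319 and 181 to 245 in P643A, 231 to 478 and 181 to 493 in W718S/Y722S, and 392 to 626 and 233 to 610 in WT.

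Differences from WT, all genes: P631A had 65 higher, against 35 with the block, 30 without a trend and 38 merged. W718E had 66 higher and 166 lower, against 108 and 253 on the deposited values, and higher 131 with the block and 37 without a trend. P643A had 76 and 127, against 37 and 78 without a trend and 212 lower on the deposited values. W718S/Y722S had 58 and 166, against 24 and 101 merged. Members lower: P631A had 1, against 0 without a trend, and P643A had 2, against 1 with no filter, without a trend or merged (Chac1, -0.236, -0.236 and -0.240). Without each library, members lower were 1 in P631A and W718E, 1 to 2 in P643A and 1 to 5 in W718S/Y722S, and all genes ranged over 35 to 93 higher and 150 to 206 lower in P631A, 40 to 74 and 136 to 167 in W718E, 52 to 91 and 106 to 131 in P643A, and 36 to 110 and 117 to 238 in W718S/Y722S.

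Median log2 ratios of vehicle levels with each table's size factors were 1.138, 1.342 and 0.701 for the amino acid arm in P631A, P643A and W718S/Y722S. For the ER chaperone arm they were 0.035, -0.007, 0.104 and -0.244, with the sign turned in P631A, W718E and W718S/Y722S. In Dex libraries the ER chaperone median turned to -0.048 in W718E and -0.051 in P643A, and was 0.054 in W718S/Y722S. The cause was not tested. Whether replicate numbers pair the libraries is not stated in the labels. Outside W718E the block ended 1 member call, Atf6 in W718S/Y722S.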
